A study of Mus musculus with 4 samples.

Results

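The Slco and Slc22 genes encode the organic anion transporting polypeptides and the organic anion, cation and carnitine transporters. They were taken from the array design as every probe, other than control spots, whose gene name begins with Slco or Slc22a and a digit. The rule found 49 probes for 41 genes, 15 of them Slco and 26 Slc22, among 39429 probes and 27431 gene names on the array. Their transcripts were compared between livers lacking NIPP1 and control livers. NIPP1, encoded by Ppp1r8, is a nuclear regulator of protein phosphatase 1. Total liver RNA came from 4 control mice and 4 mice labelled as a conditional liver knockout of NIPP1, all male, untreated, 2 months old and of mixed strain. The sources used here do not give the Cre line, the deleted exons or the genotype of the controls beyond that word. Each of 4 two-colour arrays carried RNA of 1 control and 1 knockout mouse, and no mouse was used on more than 1 array. Knockout RNA was labelled with Cy3 on replicates 1 and 2 and with Cy5 on replicates 3 and 4, so dye orientation and the mice measured in it cannot be told apart.

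All differences are log2 knockout over control on an array after background correction and normalization, and a mean is over the 4 arrays with its standard deviation (SD). Because the correction adds an offset of 50 intensity units, log2 values of dim probes are drawn towards 0. For the members whose value moved by over 1.5 times with it, the log2 ratio of the scanner software's processed signals, which has no such offset, is given as well. Adjusted p-values are from limma with a dye term, Benjamini-Hochberg adjusted over all 16248 genes tested. The threshold was 0.05, and 0.1 was used as a second, descriptive level. The dye term takes up differences between the orientations, so these p-values do not count such differences as error. Over the arrays, 52.7% to 56.3% of spots were well above background, and the number of arrays limits the precision. Ppp1r8 itself was lower in knockout RNA on every array, with log2 values of -0.60, -0.74, -0.74 and -0.63 on replicates 1 to 4. Its mean was -0.68, and -1.22 with the processed signals.

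Slco proteins take up large amphipathic organic anions such as bile acids, conjugated steroids, thyroid hormones and many drugs without sodium. Slc22 proteins fall into organic cation transporters, organic anion transporters and carnitine transporters. In hepatocytes, members on the blood-facing membrane bring compounds into the cell for metabolism, and ABC and MATE transporters on the canalicular membrane export products into bile. Several members are expressed at different levels in male and female mouse liver, under the control of the pattern of growth hormone secretion. Slco1a1 is the best known male-predominant member, and Slco1a4 is higher in females.

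In these livers 20 of the 41 genes were well above background in all 8 mice, 6 in between 1 and 7 mice, and 15 in none. The 6 Slco genes above background in all mice were Slco1a1, Slco1a4, Slco1b2, Slco2a1, Slco2b1 and Slco3a1. The 14 such Slc22 genes included the liver anion transporter Slc22a7, the carnitine and ergothioneine transporter group of Slc22a4, Slc22a5 and Slc22a21, and Slc22a6, Slc22a13, Slc22a13b, Slc22a15, Slc22a17, Slc22a18, Slc22a23, Slc22a28 and Slc22a30. Slc22a26 was above background in 7 mice, and Slc22a27 and Slc22a29 in 5 mice each.

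The genes above background in no mouse included several known from other organs. Among Slc22 genes these were the renal cation transporter Slc22a2, the renal anion transporter Slc22a8, the urate transporter Slc22a12, and Slc22a14, Slc22a19, Slc22a20 and Slc22a22. Among Slco genes they were the brain thyroxine transporter Slco1c1, and Slco1a6, Slco4a1, Slco4c1, Slco5a1, Slco6b1, Slco6c1 and Slco6d1. Slc22a16 was above background in 1 control mouse, Slc22a3 in 1 knockout mouse, and Slco1a5 in 1 control mouse on 1 of its 2 probes. A probe not well above background gives only an upper bound, so these 18 genes were not tested and no difference is given for them.

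**Figure D1:**
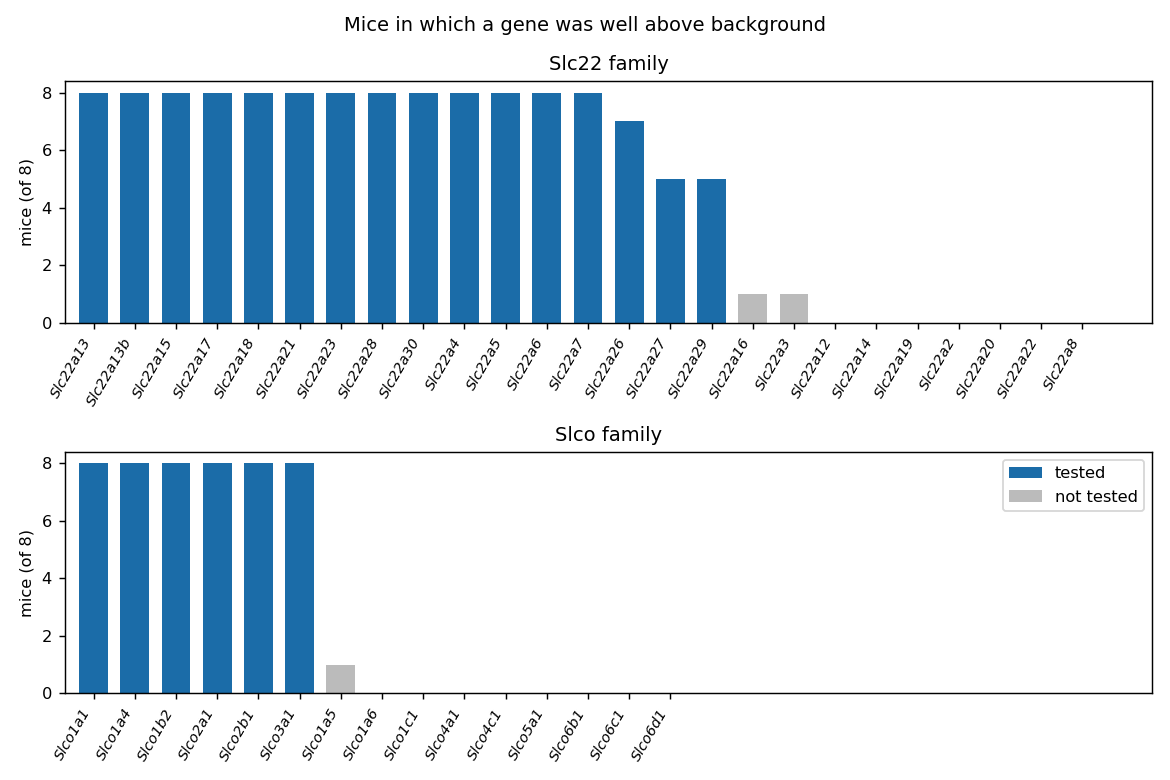
Number of mice, of 8, in which 25 Slc22 genes (upper panel) and 15 Slco genes (lower panel) was well above background on at least 1 of its probes. Blue bars are tested genes and grey bars are genes not tested; 19 of the genes drawn reach 8 mice and 15 stand at 0.

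Probes detected in 3 or 4 mice of either genotype were tested, which left 23 genes, 6 Slco and 17 Slc22. None of them passed an adjusted p of 0.05 in limma, and neither did any other tested gene (0% of 16248). At an adjusted p under 0.1 there were 3 members, against 5.6% of all tested genes: Slc22a26 was higher in knockout RNA, and Slco1a1 and Slc22a23 were lower. Of all tested genes, 3.53% were called higher and 2.07% lower at that level. With arrays centred on their median in place of loess, higher calls among all genes were 1027 and lower calls 339, beside 574 and 336. At an unadjusted p under 0.05, limma gave 6 members higher and 4 lower, against 12.6% and 10.1% of all tested genes, or 10 members against 22.7%. The 6 higher members included Slc22a27 and Slc22a29, which passed the filter through the knockout mice alone. Where all 8 channels had to be above background, 7 of 20 members had an unadjusted limma p under 0.05, against 3481 of 15015 genes. No member stayed under 0.1 when any of replicates 1 to 4 was left out, or without the dye term. The exact sign-flip test of a single gene over 4 arrays gives 0.13 at the lowest, and so cannot reach 0.05.

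Of the 23 members, 13 had a mean above 0 and 10 a mean below 0. The median log2 value was -0.32 over the 6 Slco genes and 0.11 over the 17 Slc22 genes, beside -0.00076 over all tested genes. Without replicate 1 the Slco median was -0.093. It was -0.034 with no filter on dim probes, which takes in the Slco genes not tested here. Members with a mean of at least 0.5 in size numbered 5, against 3.94% of all tested genes, and these were Slc22a26, Slc22a27, Slc22a29, Slco1a1 and Slco1a4. Slc22a27 and Slc22a29 passed the filter through the knockout mice alone, so their direction is in part set by it. The sign was the same on all 4 arrays for 5 members, Slc22a26, Slco1a1, Slco1b2, Slc22a23 and Slc22a30, against 24.2% of all tested genes. RNA of whole livers was measured, so fewer cells of a type and less RNA per cell cannot be told apart.

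**Figure D2:**
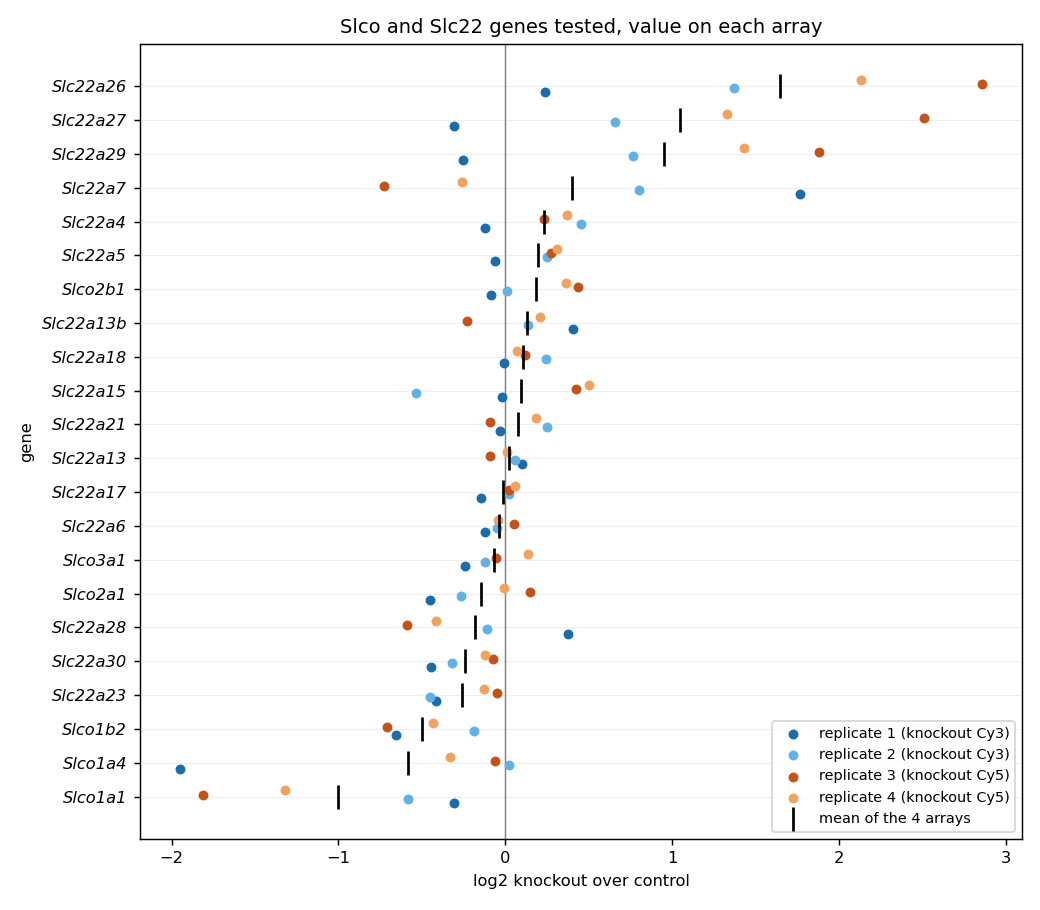
Log2 knockout over control of 22 tested genes on each array, ordered by the mean, which is drawn as a black bar. Blue points are the arrays with knockout RNA in Cy3 and orange points those with it in Cy5; Slc22a26 lies above 0 and Slco1a1 below 0 on all 4 arrays, while Slc22a7 lies above 0 in blue and below 0 in orange.

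Slco1a1, which transports bile acids and conjugated steroids, was lower in every knockout mouse than in any control mouse. Its processed signals in the control mice of replicates 1 to 4 were 4628, 4499, 6277 and 6369 intensity units. In the knockout mice they were 3605, 2911, 1756 and 2604. The groups did not overlap, and the knockout mice of replicates 3 and 4 had the lowest signals. The log2 values were -0.30, -0.58, -1.81 and -1.32, with a mean of -1.0 ± 0.69 (SD, n = 4), or 2.01-fold lower (limma adjusted p = 0.0587). Its probe lies at chromosome 6, 141856493 to 141856552 on mm9, and reads from its 5′ end, for the first 30 of its 60 bases:
Slco1a1 probe: gatattctcaaagactactttcttatactc

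Slco1b2 encodes the main liver-specific uptake carrier of the family in mice. Its processed signals were 59720, 45010, 68020 and 62460 in the control mice and 41890, 42400, 39040 and 40500 in the knockout mice. All 4 knockout mice were below all 4 controls, and the control mouse of replicate 2 was closest to them. The log2 values were -0.66, -0.19, -0.71 and -0.43, a mean of -0.50 ± 0.24 (SD, n = 4), with a limma adjusted p of 0.109. No spot on any array was saturated. Normalized levels in which the 4 knockout mice all lay below the 4 controls were found for 2 members, Slco1a1 and Slco1b2, and for 5.02% of all tested genes. The probe of Slco1b2 lies at chromosome 6, 141634476 to 141634535 on mm9.

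Slco1a4, a carrier of digoxin and other large organic compounds, differed mainly on 1 array, and is described because of its size, after its values were seen. Its processed signals were 961.7, 477.9, 911.9 and 630.8 in the control mice and 188, 499, 829.5 and 454.3 in the knockout mice. The knockout mouse of replicate 1 was far below all others, and the remaining mice of both groups overlapped. The log2 values were -1.95, 0.02, -0.06 and -0.33, and the mean was -0.58 ± 0.93 (SD, n = 4; limma adjusted p = 0.385). Without replicate 1 the mean was -0.087.

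The other 3 tested Slco genes had smaller means. Slco2b1, a carrier of steroid sulphates found in many tissues, gave -0.09, 0.01, 0.44 and 0.37, so the 2 arrays with knockout RNA in Cy5 were higher (mean 0.18 ± 0.26, SD, n = 4; limma adjusted p = 0.146). Its second probe, which overlaps the first, gave a mean of 0.18. Slco2a1, the prostaglandin transporter, gave -0.45, -0.27, 0.15 and -0.01, a mean of -0.14 ± 0.27 (SD, n = 4). Slco3a1 gave a mean of -0.07 ± 0.16 (SD, n = 4), and its second probe above background gave 0.06, the opposite sign. Within each of these 3 genes the difference was smaller than the spread between arrays.

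Of the 41 genes, 26 lie in 6 groups of at least 3 members on a chromosome with gaps under 1 megabase, by the gene order of the RefSeq table for GRCm38.p6. On chromosome 19, 8 Slc22 genes follow one another with no other protein-coding gene between them: Slc22a19, Slc22a26, Slc22a27, Slc22a28, Slc22a29, Slc22a30, Slc22a8 and Slc22a6. On chromosome 6 the order is Slco1c1, Slco1b2, Slco1a4, Slco1a1, Slco1a6 and Slco1a5. All 3 tested members of the chromosome 6 group had means below 0. On chromosome 19, Slc22a26, Slc22a27 and Slc22a29 had means of about 1 or more, while their tested neighbours Slc22a28, Slc22a30 and Slc22a6 had means of -0.18, -0.24 and -0.04. The difference between these neighbours was not tested.

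**Figure D3:**
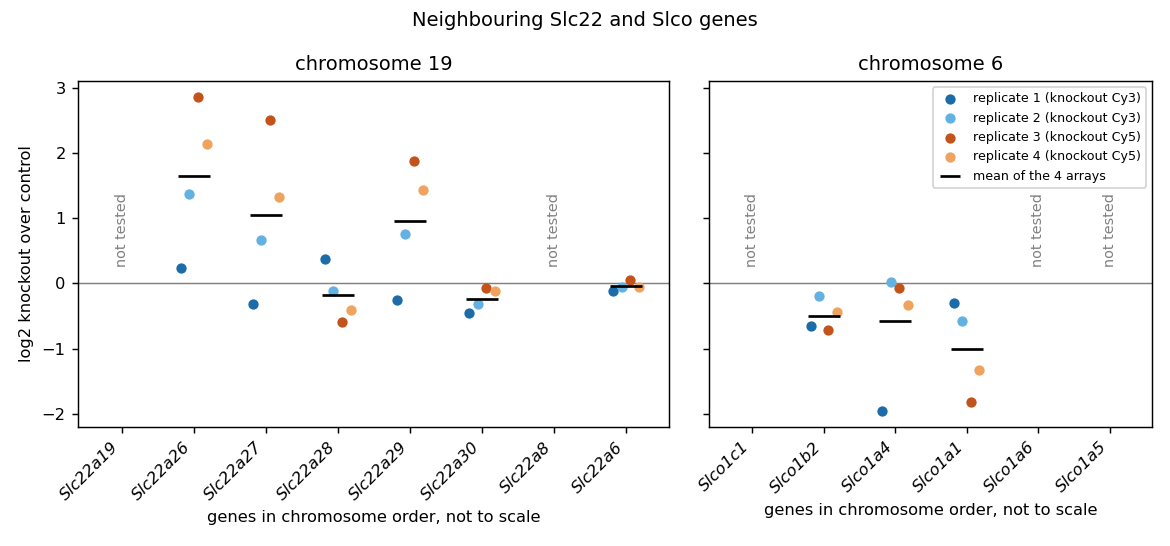
Log2 knockout over control of neighbouring genes in chromosome order, 8 Slc22 genes on chromosome 19 and 6 Slco genes on chromosome 6. Points are the 4 arrays, coloured by replicate, and the black bar is their mean. The means of Slc22a26, Slc22a27 and Slc22a29 stand above 0 and those of Slc22a28 and Slc22a30 below 0. On replicate 1, Slc22a27 and Slc22a29 lie below 0 and Slc22a28 above 0. Genes below background are marked as not tested.

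Slc22a26, Slc22a27 and Slc22a29 belong to a rodent expansion of organic anion transporters, and their transcripts are reported as female-predominant in mouse liver. Slc22a26 had processed signals of 81.6, 26.9, 28.8 and 8.57 in the control mice, the last of these not well above background. In the knockout mice the signals were 119.5, 166.4, 761.5 and 315.4. Every knockout mouse was above every control, with replicate 1 showing the smallest gap. The log2 values were 0.24, 1.37, 2.86 and 2.13, a mean of 1.65 ± 1.12 (SD, n = 4), or 3.14-fold higher (limma adjusted p = 0.0699). The log2 ratios of the processed signals, without the offset, were 0.55, 2.63 and 4.72 on replicates 1 to 3, where both mice were well above background. The knockout mouse of replicate 4 was compared with a control that was not, so the size of that ratio is not exact on either scale. Slc22a26 was the 1 member whose 4 knockout levels all lay above the 4 controls, a pattern found for 7.1% of all tested genes. With Slco1a1 and Slco1b2 this made 3 members without overlap, against 12.1% of all tested genes.

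Slc22a27 and Slc22a29 were measured in fewer mice, and they are described in full because of their size, after their values were seen. The signals of Slc22a27 were 48.7, 9.26, 4.2 and 6.65 in the control mice and 28.6, 48.6, 336.7 and 113.6 in the knockout mice. Those of Slc22a29 were 44.9, 11.0, 6.03 and 5.51 in the control mice and 30.5, 64.9, 297.4 and 137.1 in the knockout mice. For both genes the control mouse of replicate 1 was the single control well above background, and it exceeded the knockout mouse on the same array. The other 3 arrays were all higher in knockout RNA.

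The log2 values of Slc22a27 were -0.31, 0.66, 2.51 and 1.33, a mean of 1.05 ± 1.18 (SD, n = 4; limma adjusted p = 0.134). Those of Slc22a29 were -0.26, 0.76, 1.88 and 1.43, a mean of 0.95 ± 0.93 (SD, n = 4; limma adjusted p = 0.107). Both means rest on 3 control mice that were not well above background, so their sizes are not exact, and with the processed signals they came to 3.01 and 3.06. Replicate 1, where both mice were measured, gave -0.77 for Slc22a27 and -0.56 for Slc22a29 on the processed scale. Replicate 1 gave the lowest value of Slc22a26, Slc22a27 and Slc22a29 on either scale, and the smallest size of difference in Slco1a1. In all of these genes the arrays with knockout RNA in Cy5 held the larger part of the difference. Log2 means in Cy3 and Cy5 were 0.80 and 2.49 for Slc22a26, 0.18 and 1.92 for Slc22a27, and 0.25 and 1.65 for Slc22a29. For Slco1a1 they were -0.44 and -1.57. Without the dye term the limma adjusted p was 0.171 for Slc22a26 and 0.177 for Slco1a1. The control mouse of replicate 1 had the highest signal of Slc22a26, Slc22a27 and Slc22a29 among the controls. All 8 mice are labelled male. In a check added after these values were seen, the Y-linked genes Ddx3y, Eif2s3y and Uty were well above background in 8 of 8 mice and Xist in 0.

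**Figure D4:**
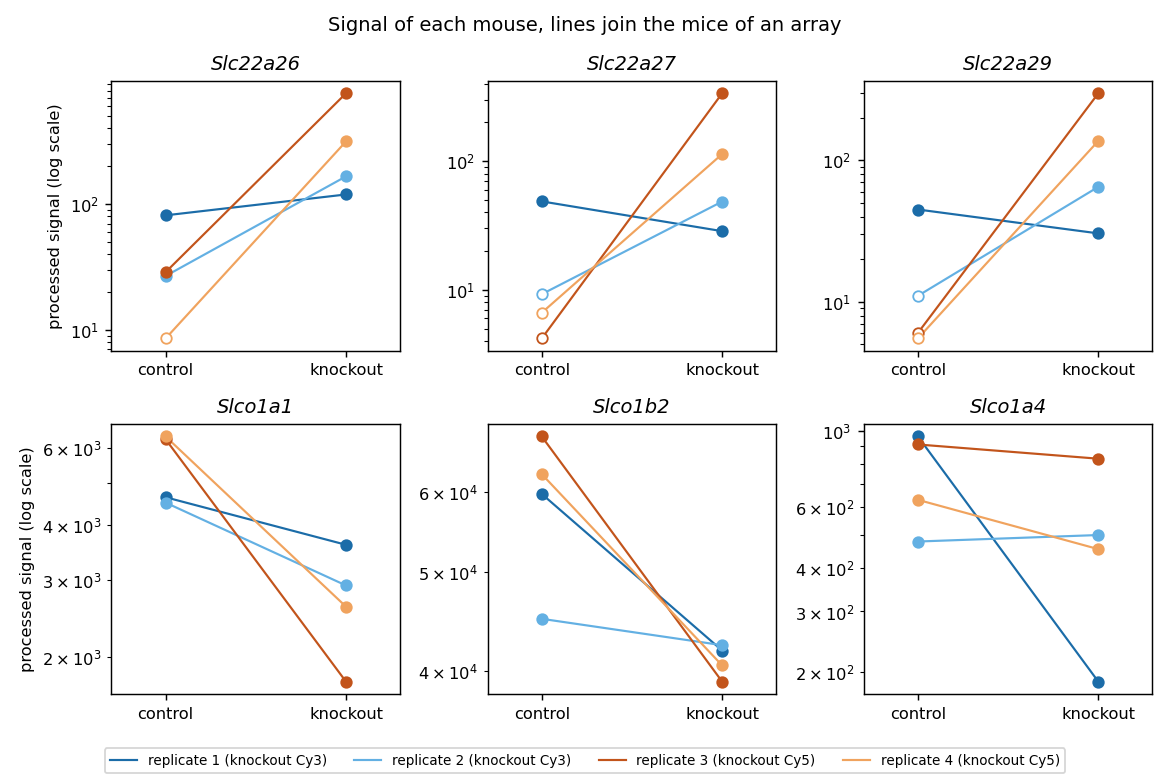
Processed signal of each mouse, on a log scale, for 6 genes; a line joins the control and the knockout mouse of an array, and open points were not well above background. The lines of Slc22a26 climb and those of Slco1a1 and Slco1b2 descend on all 4 arrays, while Slc22a27 and Slc22a29 descend on replicate 1 and Slco1a4 drops steeply on replicate 1.

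The probes of these 3 genes lie on chromosome 19 of mm9, on the minus strand, at 7856477 to 7856536 for Slc22a26, 7938881 to 7938940 for Slc22a27 and 8234836 to 8234895 for Slc22a29. Their first 30 of 60 bases are shown because the genes are close relatives that a probe has to tell apart:
Slc22a26 probe: attctaggaatatttgtctcaactccaatc
Slc22a27 probe: tttttccacttctgtgatataatacctgag
Slc22a29 probe: cacataggaattgctgcaatcgattactat
Over all 1176 pairs of the 49 probes, the longest run of bases shared by probes of different genes was 10. Probes were compared only with each other, so whether a probe also binds the transcript of a relative was not tested. The overlapping probes of Slco2b1 shared 38.

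The bases before the annotated start were compared for the neighbours on chromosome 19, which are close relatives. RefSeq promoter sequences on GRCm38.p6 matched 35 of the 41 genes. In the 250 bases before the start, Slc22a28 and Slc22a30 were 93% identical in a global alignment. Slc22a29 was 65.1% identical to Slc22a28 and 63.6% to Slc22a30. Slc22a26 and Slc22a29 were 42.2% identical, and Slc22a26 and Slc22a27 45.9%. Slc22a26 was 50.5% identical to Slc22a28 and 52% to Slc22a30. Slc22a27 was 45.7% identical to Slc22a28, 47.6% to Slc22a29 and 44.2% to Slc22a30. Unrelated promoters were not aligned, so the identity that unrelated sequences would give is not known here. The sequences of the 3 related promoters are printed 5′ to 3′ on the gene's strand, with the longest stretch that all 3 share, of 16 bases, in capitals. They lie at chr19:8218901-8219150, chr19:8131983-8132232 and chr19:8405106-8405355, all on the minus strand:
Slc22a29: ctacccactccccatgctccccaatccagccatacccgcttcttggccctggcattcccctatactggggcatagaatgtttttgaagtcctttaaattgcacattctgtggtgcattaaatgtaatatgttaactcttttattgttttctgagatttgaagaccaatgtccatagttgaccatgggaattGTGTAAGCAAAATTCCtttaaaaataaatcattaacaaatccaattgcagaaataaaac
Slc22a28: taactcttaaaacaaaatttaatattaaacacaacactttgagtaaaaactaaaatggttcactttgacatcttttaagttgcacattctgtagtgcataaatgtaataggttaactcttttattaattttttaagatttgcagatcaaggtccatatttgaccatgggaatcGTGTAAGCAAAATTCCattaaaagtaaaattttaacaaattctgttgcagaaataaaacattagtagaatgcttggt
Slc22a30: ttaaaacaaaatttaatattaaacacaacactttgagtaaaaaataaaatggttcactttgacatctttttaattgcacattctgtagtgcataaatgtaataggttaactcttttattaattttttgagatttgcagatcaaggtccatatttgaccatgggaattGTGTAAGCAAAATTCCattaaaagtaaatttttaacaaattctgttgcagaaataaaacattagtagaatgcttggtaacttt
The shared stretch was found in 0.00913% of all 32851 promoters of the table, on either strand. It was chosen for being shared by these 3 promoters, which are counted in that share, so no rarity is read from it.

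The promoter of Slc22a26, at chr19:7802668-7802917 on the minus strand of GRCm38.p6, is printed with its one match to TTCNNNGAA in capitals, the core letters bound by STAT5, the mediator of growth hormone signalling in liver:
Slc22a26: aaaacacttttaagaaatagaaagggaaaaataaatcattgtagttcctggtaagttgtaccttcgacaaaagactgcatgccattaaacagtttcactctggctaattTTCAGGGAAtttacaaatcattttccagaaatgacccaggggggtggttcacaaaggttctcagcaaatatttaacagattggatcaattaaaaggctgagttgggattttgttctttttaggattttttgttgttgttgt
On either strand these letters were found in the 250-base windows of 10 of the 35 members, among them Slco1b2 and Slco2b1, and in 8.89% of all promoters. They were not in the windows of Slc22a27, Slc22a29 and Slco1a1. GTTAAT, part of the site of the hepatocyte factor HNF1, was in 4 members, Slc22a29, Slc22a6, Slc22a8 and Slco1b2, and in 6.43% of all promoters. TATAAA was in 5, among them Slco1a1 and Slco1b2, and in 12.4% of all promoters. For each motif a member counted if any of its annotated promoters matched, while the share is over single promoters. These counts and shares can therefore not be compared directly. No match to one of these motifs overlapped a match to another in the members (0 genes), and a match is only a description of letters in a window.

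Among the neighbours, Slc22a30 was lower on every array, with -0.45, -0.32, -0.08 and -0.12 and a mean of -0.24 ± 0.17 (SD, n = 4; limma adjusted p = 0.109). Slc22a28 gave 0.38, -0.11, -0.59 and -0.41, so that replicate 1 had the opposite sign of the other 3 arrays (mean -0.18 ± 0.42, SD, n = 4). Its second probe gave a mean of -0.16. Slc22a6, the para-aminohippurate transporter of the kidney, had a mean of -0.04 ± 0.07 (SD, n = 4) at signals between 28.4 and 56.9, and -0.087 with the processed signals. These 3 genes were well above background in all 8 mice.

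Slc22a23, a member without a settled substrate, lies at chromosome 13, 34271081 to 34271140 on mm9. Its signals were 2927, 2831, 2360 and 2615 in the control mice and 2168, 2026, 2258 and 2380 in the knockout mice. The groups overlapped, since the control mouse of replicate 3 was below the knockout mouse of replicate 4. The log2 values were -0.42, -0.45, -0.05 and -0.13, all below 0, a mean of -0.26 ± 0.20 (SD, n = 4) with a limma adjusted p of 0.0918. The arrays with knockout RNA in Cy3 held the larger part of this difference.

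Slc22a7, a liver organic anion transporter, gave 1.77, 0.80, -0.72 and -0.26. Its sign thus followed the dye orientation, and the mean of 0.40 ± 1.12 (SD, n = 4; limma adjusted p = 0.30) was smaller than the spread. Slc22a7 signals ranged from 4226 to 10500 in the control mice and from 6081 to 14090 in the knockout mice, which overlap. Slc22a18, an imprinted member, gave -0.01, 0.24, 0.12 and 0.07 and a mean of 0.11 ± 0.11 (SD, n = 4; limma adjusted p = 0.380).

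The carnitine and ergothioneine transporters Slc22a5, Slc22a21 and Slc22a4 lie next to one another on chromosome 11 and were above background in all mice. Slc22a5, the carnitine uptake carrier, gave -0.06, 0.25, 0.28 and 0.31, a mean of 0.19 ± 0.17 (SD, n = 4; limma adjusted p = 0.213). Slc22a4, the ergothioneine transporter, gave -0.12, 0.46, 0.23 and 0.37, a mean of 0.23 ± 0.25 (SD, n = 4; limma adjusted p = 0.299). Slc22a21 gave -0.03, 0.25, -0.09 and 0.18 and a mean of 0.08 ± 0.17 (SD, n = 4), or 0.18 with the processed signals. For Slc22a4 and Slc22a5 replicate 1 was the single array below 0.

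The remaining tested members had means between -0.01 and 0.13. Slc22a15 gave -0.02, -0.54, 0.43 and 0.51, split by dye orientation, with a mean of 0.09 ± 0.48 (SD, n = 4). Its second probe, which is dimmer, gave 0.16, 0.19, 0.18 and 0.02, with a mean of 0.14 and no such split. Slc22a13b gave 0.41, 0.14, -0.23 and 0.21 (mean 0.13 ± 0.27, SD, n = 4). Slc22a13, a urate and nicotinate transporter, gave 0.10, 0.06, -0.09 and 0.01 (mean 0.02 ± 0.08, SD, n = 4), and its mean was 0.076 with the processed signals. Slc22a17, the receptor for lipocalin-2, gave -0.15, 0.02, 0.02 and 0.06 (mean -0.01 ± 0.09, SD, n = 4), and its mean was 0.023, of the opposite sign, with the processed signals. In each of these genes, on the probe that represents it, the difference was smaller than the spread between arrays.

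The other genes of hepatic transport were taken from fixed lists, described by counts at an adjusted p of 0.1 in limma. These stand beside 3.53% of all tested genes called higher and 2.07% called lower at that level, and 22.7% at an unadjusted p under 0.05. Of 10 tested canalicular exporters, 3 were called higher and 0 lower, with a list median of 0.025. These were the multidrug exporter Abcb1a (0.63, adjusted p = 0.0586), the cation exporter Slc47a1 (0.47, adjusted p = 0.0618) and the phospholipid floppase Abcb4 (0.37, adjusted p = 0.0646), each above 0 on all 4 arrays. Abcb1a gave 0.15, 0.315, 1.1 and 0.96, higher on the arrays with knockout RNA in Cy5. Abcb4 gave 0.48, 0.55, 0.22 and 0.23, higher on those with it in Cy3. The bile salt exporter gene Abcb11 was below 0 on all 4, at -0.57, -0.16, -0.50 and -0.06 (adjusted p = 0.206). Of 10 tested carriers of blood-side export and bile acid uptake, 0 were called in limma and 4 had an unadjusted p under 0.05, against 22.7% of all tested genes, with a median of 0.12. Among these, Slc51b and Abcc3, which export bile acids and conjugates to blood, were above 0 on every array, with means of 0.70 and 0.45. The sodium-dependent bile acid carrier Slc10a1 gave -0.42, -0.50, 0.66 and 0.66, split by dye orientation.

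Of 15 tested regulators of transporter genes, 1 was called higher and 0 lower, with a median of 0.12. This was Nfe2l2, encoding the oxidative stress factor NRF2 (0.74, adjusted p = 0.0586). Nfe2l2 gave 0.26, 0.61, 1 and 1.09, higher on both arrays with knockout RNA in Cy5 than on both with it in Cy3. Of 11 tested genes of growth hormone and STAT5 signalling, 1 was called higher and 0 lower, with a median of 0.042. This was the prolactin receptor gene Prlr (0.82, adjusted p = 0.0775), with 0.23, 0.63, 0.92 and 1.5, in which replicate 1 was again lowest. Both of its arrays with knockout RNA in Cy5 were above both with it in Cy3. The STAT5 target Cish gave 3.80, 2.18, -0.96 and -3.28, and Bcl6, a repressor of female-predominant liver genes, gave -2.11, -3.22, 1.41 and 0.95. Both changed sign with the dye orientation, and their means were smaller than the spread between arrays.

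Of 8 tested genes of carnitine synthesis and use, 2 were called higher and 0 lower, with a median of -0.018. They were Tmlhe, the first enzyme of carnitine synthesis (0.34, adjusted p = 0.0765), and the carnitine acetyltransferase gene Crat (0.30, adjusted p = 0.0903). Crat gave -0.01, 0.01, 0.70 and 0.52, so its mean came from the 2 arrays with knockout RNA in Cy5. The mitochondrial carnitine carrier gene Slc25a20 was below 0 on all 4 arrays, with a mean of -0.30 (adjusted p = 0.112). Of 8 tested genes of thyroid hormone handling, 1 was called higher, Serpina7, encoding thyroxine-binding globulin (0.80, adjusted p = 0.0534), and 0 lower, with a median of 0.056. Serpina7 gave 0.35, 0.245, 1.27 and 1.32, so the arrays with knockout RNA in Cy5 held the larger part of its difference. Of 8 tested genes of urate handling and phosphate or anion transport, 1 was called higher and 2 lower, with a median of -0.13. Slc17a2 was -0.83, -0.74, -0.87 and -1.02 on the 4 arrays (adjusted p = 0.0534), and Slc17a4 had a mean of -0.57 (adjusted p = 0.0747). Slc17a4 gave -0.33, -0.32, -1.02 and -0.59, with the larger part on the arrays with knockout RNA in Cy5. The urate-forming enzyme gene Xdh had a mean of 0.55 (adjusted p = 0.0692).

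Markers of cell types moved to different degrees beside these genes. Hepatocyte markers were tested for 10 of 10 genes and kidney tubule markers for 1 of 8. Of the hepatocyte markers, 1 was called higher at an adjusted p of 0.1 in limma, Alb (0.44, adjusted p = 0.0647), which was below 0 on both arrays with knockout RNA in Cy3 and above 0 on the others. Of the 10 hepatocyte markers 5 were above 0 and 5 below, with a median of -0.024. Of 8 markers of bile duct cells, 3 were called higher, against 3.53% of all tested genes, and 7 were above 0. Those called in limma were Tspan8 (0.67, adjusted p = 0.0566), Krt19 (0.64, adjusted p = 0.0646) and Spp1 (0.37, adjusted p = 0.0750). In all 3, both arrays with knockout RNA in Cy5 were above both with it in Cy3. Epcam, among the 7, passed the filter through the knockout mice alone. The pancreatic markers Cpa1, Pnlip and Prss2 passed it through the control mice alone. The direction of these 4 genes is in part set by the filter. Markers of endothelium (8), Kupffer cells (8), stellate cells (8), lymphocytes (5), pancreatic acini (7), kidney tubules (1) and erythroid cells (4) had 0 called in limma, with 1, 1, 0, 0, 0, 0 and 1 at an unadjusted p under 0.05, against 22.7% of all tested genes. Over all tested genes, 8070 of 16248 had a mean above 0. Means were above 0 for 0 of 8 endothelial, 2 of 8 Kupffer, 1 of 8 stellate, 0 of 5 lymphocyte, 4 of 7 pancreatic, 1 of 1 kidney and 0 of 4 erythroid markers. Among the last, Alas2 gave 0.36, -2.08, -2.28 and -2.25. The 7 pancreatic acinar markers had medians of 4.2, -2.75, -0.16 and -1.07 on replicates 1 to 4, so replicates 1 and 2 stood apart in opposite directions. Their part in the values of the transporter genes was not tested.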

How the data were processed

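Per the file headers, the arrays were read with Agilent Feature Extraction 10.7.3.1. The deposited files hold mean signal and local background intensity per spot and dye, processed signals and background flags. The authors' deposited value table holds log2 ratios, all 43020 of which on each array lay within 0.0001 of log2 knockout over control from the processed signals. The sources used here do not say how probes were placed on mm9. Background was corrected with normexp (offset 50), its parameters fitted without spots marked for non-uniform background, since the fit on all spots gave -273 in Cy3 on replicate 1. Ratios were normalized by loess with control spots at weight 0. Outlier spots (194 to 230 per array) were removed, spots of a probe averaged, and the brightest tested probe represents a gene. limma 3.58.1 under R 4.3.3 fitted a dye intercept and the knockout effect (n = 4 arrays, two-sided), and was tested on simulated data. The number of arrays limits the precision. Replicates are different mice.

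Full statistics went to members at an adjusted p under 0.1, those of the same sign on all arrays with a mean of at least 0.3, and the 5 brightest, the rest being given by value. Of other lists, members at an adjusted p under 0.1 are named, or else up to 3 of the same sign; Slc10a1, Abcb11, Slc25a20, Alas2, Cish, Bcl6, Slc22a27, Slc22a29 and Slco1a4, and the adjusted p of Slc22a4, Slc22a5 and Slc22a30, were added after their values were seen. The members and lists were chosen with earlier results of these data known. Alternatives covered the background, signal, normalization, dye term, kind of fit, variance, filter, probe choice and each replicate left out. Sequences are from RefSeq (GRCm38.p6) and the array files. The values of 1 member are not reported here.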

Additional observations from a re-analysis of the deposited data

Results flagged for a closer look

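Of the 23 tested members, 1 had an array far from the others. For Slc22a5 the log2 value of replicate 1 was -0.0609, against 0.25, 0.28 and 0.31 on replicates 2 to 4. Chance alone sets 1 in 20 groups of this size apart in this way.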

How the results depend on the processing

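At an adjusted p of 0.05, members were called under 2 alternatives. Without the filter on dim probes, which tested 41 members among 30397 genes, Slco1a1 was called (0 higher and 1 lower, 177 and 89 of those genes). The Slco median, which then took in the Slco genes left untested otherwise, was -0.034. Fitting the channels separately called 5 members higher and 3 lower (1570 and 1178 of all genes), and 6 higher at 0.1 (2292 and 1933 of all genes). At 0.05, all-gene counts higher and lower were 19 and 10 without background correction, 5 and 3 with processed signals, 160 and 47 with median centring, 6 and 4 without the dye term and 19 and 8 with trend and robust. At 0.1, members higher and lower numbered 2 and 1 with background parameters from all spots (244 and 198 of all genes). They numbered 2 and 2 without background correction (653 and 386 of all genes), and 4 and 1 with median centring (1027 and 339 of all genes). They numbered 0 and 0 without the dye term (152 and 78 of all genes). Where all 8 channels had to be above background, a filter that left Slc22a26 untested, 0 members were higher and 2 lower (558 and 347 of 15015 genes). Offset 10 and the processed signals each left 1 lower, having lost Slc22a23 (331 and 249 of all genes lower). Leaving out 1 replicate gave 0 members at 0.1 and from 0 to 37 of all genes higher and 0 to 23 lower, with fewer arrays in the fit, and Slco medians from -0.40 to -0.093, the latter without replicate 1. Slc22a26 ranged from 1.60 to 3.28 and Slco1a1 from -1.03 to -0.95 over the alternatives that keep all arrays and test the gene. The cause of these differences was not tested. Slc22a26, Slco1a1 and Slc22a23 kept their sign in every setting that tested them. The 2 mice of an array are already paired in each ratio, so no further block was fitted. A slide block was not run, since the arrays share 1 scan. Dim probes are limited by their signal over background.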
